A study of Mus musculus with 4 samples.

Results

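Cells break glucose down to pyruvate by glycolysis, and this text follows 37 mouse genes of that pathway and of the response to low oxygen through day 6 retinal organoids with and without doxycycline (Dox). The genes were chosen by symbol: the glycolytic enzymes, the glucose and lactate transporters, 4 metabolic regulators and 11 genes known as hypoxia targets. All 37 symbols were found among the 55426 rows of the expression table. Aldoa has 2 rows, so the genes fill 38 rows.

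A retinal organoid is a ball of cells, started from pluripotent stem cells, that forms retinal progenitors in culture. Every library came from one line, labelled Rx:GFP Mettl3 KO, a Mettl3 knockout in which Dox switches on METTL3 with an HA tag. This protein is the methyltransferase that places N6-methyladenosine on RNA. The 2 untreated libraries had no Dox, and the 2 Dox libraries had 2 µg/ml for 6 days. All 4 shared a GMEM medium with 5% KSR, AGN at 0.1 µM, and NEAA, β-ME and sodium pyruvate at 1% each, so pyruvate was supplied to both groups. The labels give no oxygen level and do not explain the letters EV in the sample titles. They describe no library with Dox and without the inducible gene, so an effect of Dox itself and one of METTL3 cannot be told apart. Nothing in the labels says that the duplicates came from separate cultures, and p-values then measure only the spread between these libraries, which may be technical.

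Values are FPKM, fragments scaled to transcript length and library depth, so levels can be set side by side between genes. The depth estimated from the steps of the low values was 31.9 to 34.8 M fragments per library. Mettl3 itself was listed at 40.33 and 37.98 FPKM untreated and at 45.2 and 46.4 FPKM with Dox (adjusted p = 0.122 in limma), which does not separate the inducible copy from the knocked-out locus. The levels of many cell type markers changed with Dox. Of 7 retinal progenitor markers 6 rose, and their summed level went from 248 to 273 FPKM untreated to 929 to 1080 FPKM with Dox. Of 7 neuron markers 6 fell, from a sum of 149 to 152 FPKM to one of 82.2 to 86.0 FPKM, and the remaining one (Dcx) was below the filter. These are bulk samples, in which fewer cells of a type and less RNA per cell cannot be told apart. The pigment epithelium markers Pmel, Dct and Mitf rose too, from a list sum of 2.31 to 2.40 FPKM to one of 61.2 to 61.9 FPKM, and blood markers stayed at or under 0.08 FPKM each. The eGFP row, the reporter named in the line's label, was at 0.26 and 0.42 FPKM untreated and at 333.5 and 361.1 FPKM with Dox. The part of this shift in the values that follow was not tested.

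Glycolysis turns glucose into pyruvate through a chain of enzymes that runs from hexokinase to pyruvate kinase, and lactate dehydrogenase then converts pyruvate to lactate. When oxygen is low, prolyl hydroxylases of the EGLN family stop marking the transcription factor HIF for destruction, and HIF raises many of these enzymes together with Vegfa, Pdk1 and the EGLN genes themselves. The developing retina is known for a strongly glycolytic metabolism even in the presence of oxygen.

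HIF binds a short core, A or G followed by CGTG, and 6 promoters are shown: those of the genes that rose (Eno3, Ldhb, Egln3 and P4ha1) and of the more abundant genes that Eno3 and Ldhb are set against (Eno1 and Ldha, which did not pass the threshold). Eno2 also rose, and its window held no match. It is not shown because 61 of its bases lie in an annotated exon. Each sequence is the 250 bases before a RefSeq start (GRCm38.p6), for the 3 windows of Eno1 and the 2 of Ldha the one nearest the GENCODE start, read 5′ to 3′ on the gene's strand, and capitals mark every match of ACGTG or GCGTG on either strand. The Ldha window lies inside the GENCODE span of the gene, whose first annotated start is further upstream. The windows are chr4:150236458-150236707 (+) for Eno1, chr11:70656926-70657175 (+) for Eno3, chr7:46845554-46845803 (+) for Ldha, chr6:142507958-142508207 (-) for Ldhb, chr12:54203875-54204124 (-) for Egln3 and chr10:59323046-59323295 (+) for P4ha1.
Eno1: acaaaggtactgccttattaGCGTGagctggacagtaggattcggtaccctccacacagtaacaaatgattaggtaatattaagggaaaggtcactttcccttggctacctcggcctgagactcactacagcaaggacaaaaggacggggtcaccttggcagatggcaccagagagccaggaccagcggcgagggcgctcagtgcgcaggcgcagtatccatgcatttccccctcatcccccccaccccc
Eno3: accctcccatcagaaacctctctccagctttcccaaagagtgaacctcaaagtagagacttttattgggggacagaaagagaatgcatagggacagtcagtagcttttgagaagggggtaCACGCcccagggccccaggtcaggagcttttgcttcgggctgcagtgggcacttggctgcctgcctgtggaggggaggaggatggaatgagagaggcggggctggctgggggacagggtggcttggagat
Ldha: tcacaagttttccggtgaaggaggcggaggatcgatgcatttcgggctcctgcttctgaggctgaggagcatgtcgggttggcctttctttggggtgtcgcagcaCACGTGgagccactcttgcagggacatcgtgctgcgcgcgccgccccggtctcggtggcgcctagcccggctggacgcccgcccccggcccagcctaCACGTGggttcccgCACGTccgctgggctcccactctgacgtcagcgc
Ldhb: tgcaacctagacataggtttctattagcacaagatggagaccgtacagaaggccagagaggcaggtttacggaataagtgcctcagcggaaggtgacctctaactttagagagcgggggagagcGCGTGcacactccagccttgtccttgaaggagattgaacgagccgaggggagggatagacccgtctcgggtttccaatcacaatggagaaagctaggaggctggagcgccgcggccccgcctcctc
Egln3: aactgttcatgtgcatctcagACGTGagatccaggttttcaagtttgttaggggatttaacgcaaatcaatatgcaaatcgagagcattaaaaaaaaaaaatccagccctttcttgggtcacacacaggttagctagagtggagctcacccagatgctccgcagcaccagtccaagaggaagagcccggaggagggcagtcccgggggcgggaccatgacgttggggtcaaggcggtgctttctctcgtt
P4ha1: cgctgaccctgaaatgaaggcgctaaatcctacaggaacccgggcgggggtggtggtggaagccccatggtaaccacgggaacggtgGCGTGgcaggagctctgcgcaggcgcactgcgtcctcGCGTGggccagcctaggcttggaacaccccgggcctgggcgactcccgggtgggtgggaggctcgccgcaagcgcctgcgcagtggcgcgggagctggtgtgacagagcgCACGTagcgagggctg

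Ldha had the most matches of these 6 windows, 5 of ACGTG, where each palindrome CACGTG counts once per strand. P4ha1 had 1 match of ACGTG and 2 of GCGTG, Egln3 had 1 of ACGTG, and Eno1, Eno3 and Ldhb had 1 of GCGTG each. Windows of Eno1 and Ldha that are not shown hold further GCGTG matches, up to 2 in one of Eno1 and 1 in that of Ldha. RefSeq windows were found for 35 of the 37 genes (none for Slc2a3 and Ndrg1). Of these, 32 (91.4%) held at least 1 match of either motif in some window, against 63.2% of the 9503 tested genes and 41.5% of all 27025 genes with a window. The same order held for ACGTG alone, with 57.1% of the 35 genes, 25.7% of tested genes and 18.5% of all genes. The median GC content was 60.4% in the windows of these genes and 60.4% in those of tested genes, and the median count of the letters CG was 14 and 16. The 35 genes had 51 windows and the 9503 tested genes 12227. A gene with more windows has more room for a match, and the shares are not corrected for this. A match is a run of letters in this window and not a measured binding site. It was found in 4 of the 5 genes past the threshold that have a window and in 28 of the 30 that did not pass, and the gene of the first group without one was Eno2.

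With Dox, 5 of the 38 rows rose and 1 fell at an adjusted p below 0.05 in limma: Eno3, Ldhb, Egln3, Eno2 and P4ha1 rose, and Slc2a3 fell. That is 15.8% of the rows, against 9.31% of the 13931 genes tested. Over all tested genes 4.44% rose and 4.87% fell. The glycolytic chain did not move as a block. Its most abundant enzymes, Gapdh and Pkm, overlapped between the groups, as did Tpi1. Ldha, Pgk1, Eno1 and the main Aldoa row, also abundant, lay above the untreated range in both Dox libraries without passing the threshold. That order held for 26.5% of all tested genes. The 3 largest rises, Eno3, Ldhb and Egln3, were in genes less abundant than a related one (Eno1, Ldha and Egln1). The median log2 fold change of the 38 rows was 0.082, against -0.0042 over all tested genes. Of the 38, 25 were positive, as were 6848 of the 13931 genes tested, and 13 changed sign in some alternative fit. Only Eno3 and Ldhb kept their call in all 14 alternative fits, and the calls for the other 4 rest on the settings given in the closing section.

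**Figure D1:**
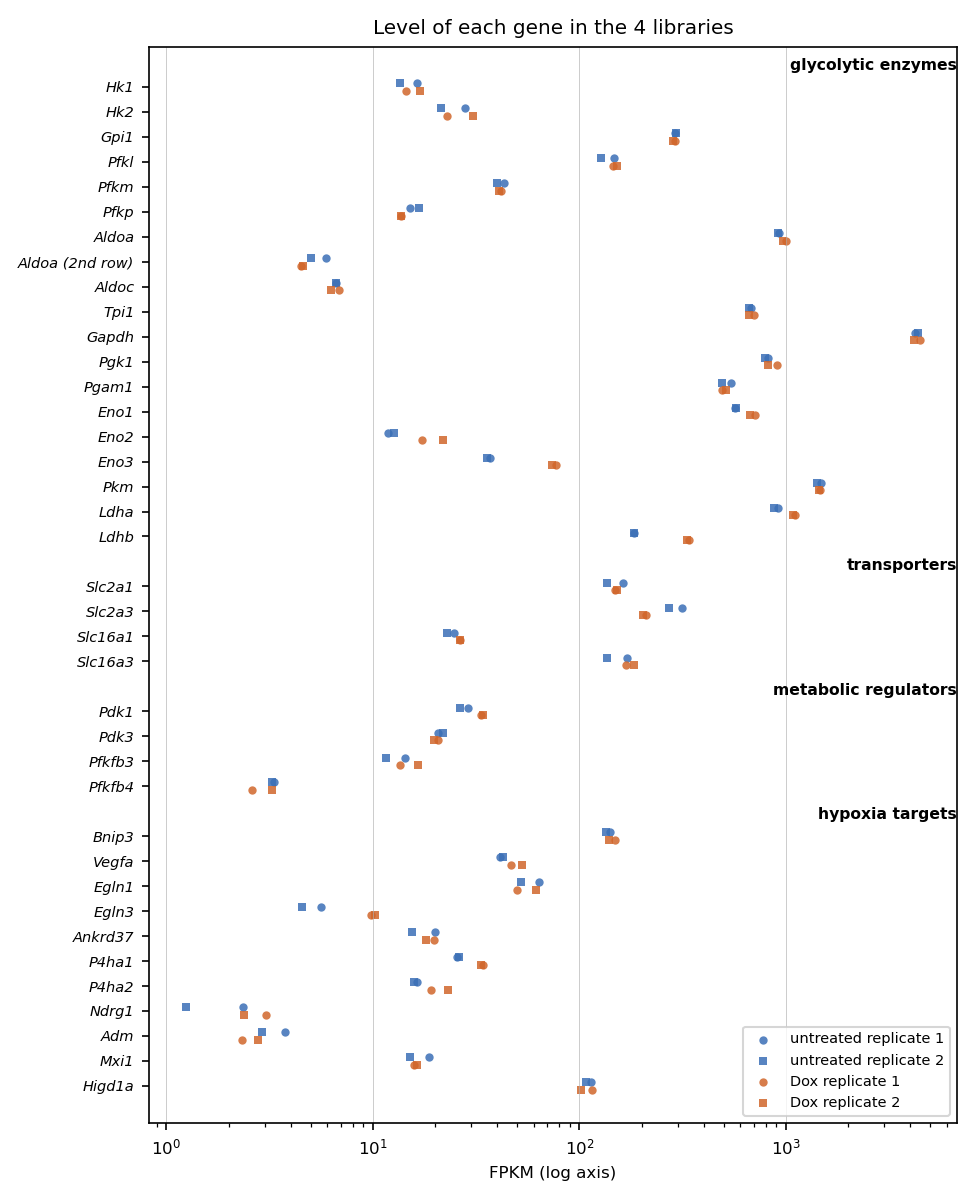
FPKM on a log axis for each of the 38 rows, by role, with 1 point per library (circles replicate 1, squares replicate 2; blue untreated, orange Dox). Eno3 and Ldhb stand clear of the untreated points, while Gapdh, between 4158 and 4475 FPKM, overlaps between the groups.

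The steps of the pathway differed by about 2 orders of magnitude in transcript level. Their order was the same in all 4 libraries except for enolase. Its summed level (Eno1, Eno2 and Eno3) was below that of Tpi1 in both untreated libraries and above it in both Dox libraries. That crossing rests on leaving out Eno1b, a copy of Eno1 that may share its reads. Eno1 and Eno1b summed to 1294 and 1292 FPKM untreated and to 1620 and 1534 FPKM with Dox, above Tpi1 in every library. Hexokinase, the entry step, summed to 34.9 to 47.5 FPKM over Hk1 and Hk2. Phosphofructokinase, the main regulated step, summed to 183.5 to 206.6 FPKM over Pfkl, Pfkm and Pfkp. Gpi1, which makes fructose 6-phosphate between these steps, lay at 284 to 294 FPKM. From aldolase onwards the levels were higher: Tpi1, the triose isomerase, was at 660 to 703 FPKM, and Gapdh, the oxidising step, at 4158 to 4475 FPKM. Pgk1, which makes the first ATP of the pathway, was at 789 to 911 FPKM and Pgam1, the mutase, at 492 to 542 FPKM. Pkm, the pyruvate kinase gene, was the second most abundant single row, at 1407 to 1485 FPKM. All 38 rows together made 1.38% to 1.56% of the summed FPKM of a library, and all passed the filter of a mean of at least 1 FPKM.

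Of the 19 rows of glycolytic enzymes, 3 rose, 0 fell and 16 did not pass the threshold (15.8% called, against 9.31% of all tested genes). All 3 that rose belong to the last steps, enolase and lactate dehydrogenase. The median log2 fold change of the 19 rows was 0.070, with a range from -0.22 to 1.04. At an unadjusted p below 0.05 the count was 5 (26.3%), with Eno1 and Ldha added, against 23.9% of all tested genes. The median was 0.101 without untreated replicate 1 and 0.006 without untreated replicate 2. It was 0.033 without Dox replicate 1 and 0.058 without Dox replicate 2. In 10 of the 19 rows both Dox libraries lay outside the untreated range, 7 above and 3 below. The same held for 53.4% of all tested genes, 26.5% above and 26.9% below.

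Enolase makes phosphoenolpyruvate, and its genes gave the clearest result. Eno3 (chr11:70657202-70662513, plus strand, GRCm38), the beta enolase of muscle, was at 36.7 and 35.6 FPKM untreated and at 77.3 and 73.5 FPKM with Dox. Both Dox libraries were high and close together. The means were 36.1 ± 0.806 and 75.4 ± 2.65 FPKM (SD, n = 2 each). On the log2 scale Dox was higher by 1.04 (SE 0.0661, adjusted p = 7.04e-04 in limma), which is 2.06-fold. Muscle markers stayed low in these libraries. Myh3, Myog and Ckm did not exceed 0.27 FPKM in any of them, and Des was at 1.46 to 2.07 FPKM.

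Eno2 (chr6:124760053-124769673, minus strand), the gamma enolase known from neurons, was at 11.8 and 12.6 FPKM untreated and at 17.2 and 21.8 FPKM with Dox. Its Dox libraries lay above the untreated ones but far from each other. The means were 12.2 ± 0.559 and 19.5 ± 3.25 FPKM (SD, n = 2 each), higher with Dox by 0.63 on the log2 scale (SE 0.125; limma, adjusted p = 0.0377). The neuron markers went the other way, as given above. The call was lost when any library except Dox replicate 1 was left out, with adjusted p = 0.184 when untreated replicate 1 was dropped, 0.139 for untreated replicate 2 and 0.125 for Dox replicate 2.

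Eno1 (chr4:150236721-150248879, plus strand), the alpha enolase found in most cells, was at 566 and 575 FPKM untreated and at 710 and 668 FPKM with Dox. The libraries did not overlap, but the log2 fold change of 0.27 (95% interval 0.07 to 0.47) did not pass the threshold (adjusted p = 0.113 in limma). The table also lists Eno1b, a retrotransposed copy of Eno1, at 728 and 717 FPKM untreated and at 910 and 866 FPKM with Dox (adjusted p = 0.0997). Reads from such near-identical copies can be split between the rows, so the level of Eno1 alone is uncertain. Eno3 made 5.84% ± 0.186 of the summed FPKM of Eno1, Eno2 and Eno3 untreated and 9.62% ± 0.023 with Dox (SD, n = 2 each). With Eno1b in the sum the shares were 2.69% ± 0.0571 and 4.51% ± 0.00454. The libraries did not overlap on either count, and a share is compared here without a test, since 2 libraries against 2 allow no exact two-sided permutation p below 0.333.

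Lactate dehydrogenase interconverts pyruvate and lactate, with Ldha encoding the subunit typical of glycolytic tissue and Ldhb the subunit typical of oxidative tissue. Ldhb (chr6:142490249-142507957, minus strand) was at 184.7 and 183.7 FPKM untreated and at 340.9 and 332.0 FPKM with Dox. Replicates were close in both groups. The means were 184.2 ± 0.714 and 336.5 ± 6.29 FPKM (SD, n = 2 each), and Dox was higher by 0.87 on the log2 scale (SE 0.0657; limma, adjusted p = 0.00122). Ldha (chr7:46841475-46855627, plus strand) was at 911 and 871 FPKM untreated and at 1108 and 1085 FPKM with Dox. Its log2 fold change of 0.30 (95% interval 0.08 to 0.52) did not pass the threshold (adjusted p = 0.110), although the libraries did not overlap. Ldha stayed the more abundant of the pair in every library. The share of Ldhb in their sum was 17.1% ± 0.393 untreated and 23.5% ± 0.0633 with Dox. Their sum was 1076 ± 28.9 FPKM untreated and 1433 ± 22.9 FPKM with Dox, 1.33 times as much.

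**Figure D2:**
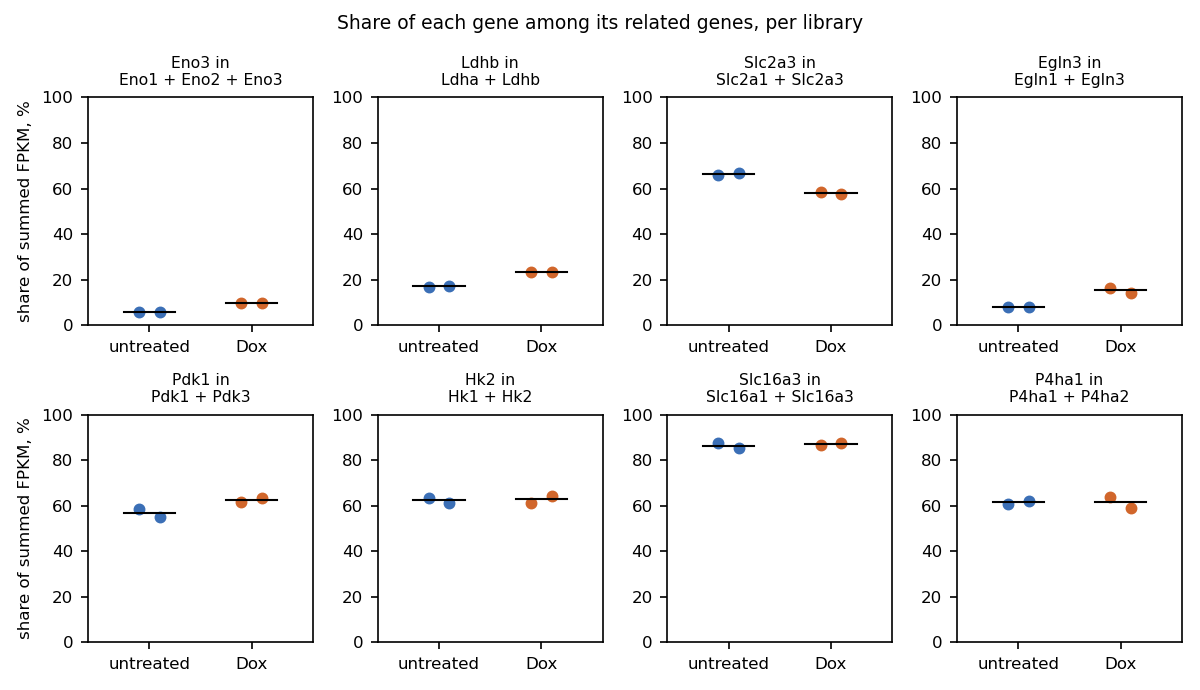
Share of one gene in the summed FPKM of its related genes, in percent, with 1 point per library and a line at the mean (blue untreated, orange Dox). The shares of Eno3, Ldhb, Egln3 and Pdk1 are higher and that of Slc2a3 lower in both Dox libraries, whereas those of Hk2, Slc16a3 and P4ha1 overlap between the groups.

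The earlier steps gave no call. Hk1 and Hk2, the hexokinases, varied more between replicates than between groups. Hk2 was at 28.0 and 21.4 FPKM untreated and at 22.9 and 30.6 FPKM with Dox (adjusted p = 0.769 in limma), and Hk1 was at 16.3 and 13.5 FPKM against 14.4 and 16.9 FPKM (adjusted p = 0.785). Because of this spread the 95% interval of the log2 fold change of Hk2 ran from -0.34 to 0.55, which leaves room for differences of either sign. Of the phosphofructokinases, Pfkl had a log2 fold change of 0.12, Pfkm of -0.01 and Pfkp of -0.20, with adjusted p-values of 0.489, 0.936 and 0.246. Pfkp, the platelet type, was at 15.1 and 16.7 FPKM untreated and at 13.7 FPKM in both Dox libraries.

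The middle of the chain was nearly level between the groups. Gpi1 had a log2 fold change of -0.03 (95% interval -0.20 to 0.14) and Tpi1 of 0.03 (-0.18 to 0.23). For Gapdh it was 0.01 (-0.34 to 0.35), for Pkm 0.02 (-0.23 to 0.26) and for Pgam1 -0.04 (-0.26 to 0.17). Pgk1 was at 819 and 789 FPKM untreated and at 911 and 822 FPKM with Dox, with an interval of -0.13 to 0.34. Adjusted p-values of these 6 genes ranged from 0.558 to 0.986 in limma. Of the aldolases, the main Aldoa row (chr7:126795234-126800751, minus strand) was at 916 to 1001 FPKM (log2 fold change 0.09, adjusted p = 0.570). The other Aldoa row (chr7:126800790-126809108) was at 4.46 to 5.92 FPKM (-0.22, adjusted p = 0.324). Aldoc, the brain aldolase, was at 6.29 to 6.85 FPKM (-0.01, adjusted p = 0.957). The table also lists copies of Aldoa, Tpi1, Pgam1, Pgk1 and Ldha, at lower levels than the genes themselves, and reads may be split between them and these genes.

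Glucose enters through Slc2a1 (GLUT1) and Slc2a3 (GLUT3), and of the 4 transporters 0 rose and 1 fell. Slc2a3 (chr6:122727809-122801640, minus strand), a high-affinity glucose transporter of neurons and of early embryonic cells, was at 314 and 273 FPKM untreated and at 210 and 204 FPKM with Dox. The untreated libraries were both higher but differed from each other more than the Dox ones. The means were 293.5 ± 29.1 and 207.2 ± 4.18 FPKM (SD, n = 2 each). It fell by 0.50 on the log2 scale (SE 0.0896; limma, adjusted p = 0.0272). Leaving out either untreated or either Dox library ended this call (adjusted p = 0.0676 to 0.177), as did the replicate block (adjusted p = 0.0530). The neuron markers fell as well, whereas 0 of 5 pluripotency markers passed the threshold in either direction (summed level 65.1 and 68.5 FPKM untreated, 72.5 and 49.4 FPKM with Dox). The part of either cell type in the value of Slc2a3 was not tested.

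Slc2a1 was at 162 and 137 FPKM untreated and at 149 and 152 FPKM with Dox, a log2 fold change of 0.01 (95% interval -0.23 to 0.26, adjusted p = 0.944 in limma). The share of Slc2a3 in the sum of both was 66.3% ± 0.516 untreated and 57.9% ± 0.779 with Dox (SD, n = 2 each), so it remained the larger of the pair. The lactate exporters gave no call. Slc16a3 (MCT4), which exports lactate from glycolytic cells, was at 171 and 136 FPKM untreated and at 168 and 184 FPKM with Dox (log2 fold change 0.21, adjusted p = 0.376). Slc16a1 (MCT1) was at 24.7 and 23.0 FPKM untreated and at 26.3 and 26.5 FPKM with Dox (0.14, adjusted p = 0.320). Slc16a3 made 85.5% to 87.5% of their sum in every library.

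The metabolic regulators set how much pyruvate enters mitochondria (Pdk1 and Pdk3, kinases that switch off pyruvate dehydrogenase) and how fast phosphofructokinase runs (Pfkfb3 and Pfkfb4). At an unadjusted p below 0.05 in limma there was 1 of the 4 (25%), against 23.9% of all tested genes. None of the 4 passed the threshold, against 9.31% of all tested genes called. Pdk1, at 29.0 and 26.5 FPKM untreated and at 33.3 and 34.0 FPKM with Dox, was nearest to it (0.27 on the log2 scale, SE 0.0752; limma, adjusted p = 0.0957). Its libraries did not overlap. Pdk3 was at 20.7 and 21.8 FPKM against 20.6 and 19.8 FPKM (-0.07, adjusted p = 0.633). Pfkfb3 was at 14.2 and 11.5 FPKM against 13.5 and 16.6 FPKM (0.21, adjusted p = 0.443), and Pfkfb4 at 2.61 to 3.32 FPKM (-0.12, adjusted p = 0.623).

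**Figure D3:**
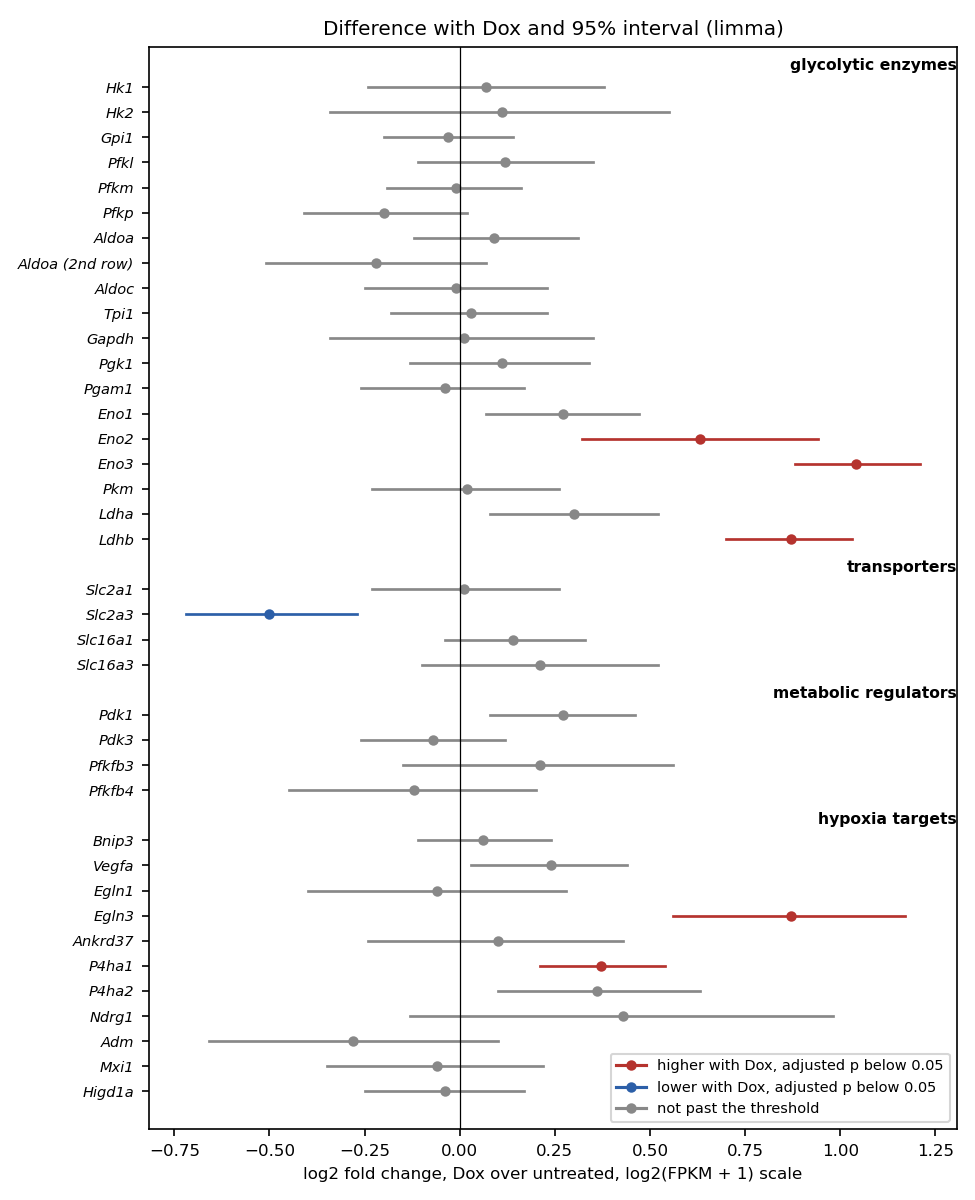
Log2 fold change with Dox on the log2(FPKM + 1) scale for each row, with its 95% interval from limma (red higher and blue lower at an adjusted p below 0.05, grey not past the threshold). The 5 red intervals are those of Eno2, Eno3, Ldhb, Egln3 and P4ha1, and the blue one is that of Slc2a3.

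Of the 11 hypoxia targets 2 rose, 0 fell and 9 did not pass the threshold (18.2% called, against 9.31% of all tested genes). Their median log2 fold change was 0.097, against -0.0042 over all tested genes. The median was 0.216 without untreated replicate 1, 0.153 without Dox replicate 2 and 0.029 without untreated replicate 2. Egln3 (chr12:54178981-54203860, minus strand), the HIF prolyl hydroxylase PHD3, was at 5.62 and 4.51 FPKM untreated and at 9.83 and 10.2 FPKM with Dox. Its Dox libraries were high and close together. The means were 5.07 ± 0.785 and 10.01 ± 0.255 FPKM (SD, n = 2 each), and the rise on the log2 scale was 0.87 (SE 0.121; limma, adjusted p = 0.0111). The call was lost without untreated replicate 2 (adjusted p = 0.0566), without Dox replicate 1 (0.0851) and without Dox replicate 2 (0.103). Egln1, the related hydroxylase PHD2, was at 63.4 and 52.2 FPKM untreated and at 49.8 and 61.4 FPKM with Dox (-0.06, adjusted p = 0.848), with a spread between replicates wider than the difference between groups. The share of Egln3 in their sum was 8.05% ± 0.138 untreated and 15.4% ± 1.59 with Dox.

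P4ha1 and P4ha2 encode catalytic subunits of the enzyme that hydroxylates collagen. P4ha1 (chr10:59323296-59373304, plus strand) was at 25.6 and 26.0 FPKM untreated and at 33.9 and 33.3 FPKM with Dox, with a small spread in both groups. The means were 25.8 ± 0.297 and 33.6 ± 0.424 FPKM (SD, n = 2 each), and the rise on the log2 scale was 0.37 (SE 0.0659; limma, adjusted p = 0.0257). Leaving out any one library ended the call (adjusted p = 0.115 to 0.175), as did the replicate block (adjusted p = 0.0829). P4ha2 had a log2 fold change of similar size, 0.36, with more spread in the Dox group (16.4 and 15.9 FPKM against 19.1 and 23.0 FPKM, adjusted p = 0.111). Among mesenchyme markers, which include collagen genes, 2 of 5 rose. Col1a2 went from 2.46 and 1.93 FPKM to 12.2 and 12.0 FPKM, whereas Col1a1, at 0.89 to 1.72 FPKM, and Col3a1, at 2.36 to 3.71 FPKM, overlapped between the groups. The part of such cells in the P4ha1 value was not tested.

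Vegfa, the vascular growth factor, was at 41.4 and 42.7 FPKM untreated and at 46.9 and 52.9 FPKM with Dox, above the untreated libraries but not past the threshold (log2 fold change 0.24, 95% interval 0.03 to 0.44, adjusted p = 0.155 in limma). Kdr, which encodes a VEGFA receptor, rose from 0.22 and 0.25 FPKM to 13.9 and 17.6 FPKM, while the other endothelial markers Pecam1, Cdh5 and Tek stayed at or under 0.89 FPKM in every library. Bnip3, a mitophagy receptor and one of the more abundant targets, was at 141 and 135 FPKM untreated and at 149 and 139 FPKM with Dox (0.06, 95% interval -0.11 to 0.24). Higd1a, a mitochondrial inner membrane protein, was at 114 and 108 FPKM against 115 and 101.5 FPKM (-0.04, -0.25 to 0.17). Both intervals hold 0.

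Low and variable members gave little resolution. Ndrg1, a stress-induced gene, was the lowest of all, at 2.34 and 1.24 FPKM untreated and at 3.02 and 2.37 FPKM with Dox (log2 fold change 0.43, 95% interval -0.13 to 0.98, adjusted p = 0.321 in limma). Adm, which encodes the vasoactive peptide adrenomedullin, was at 3.77 and 2.89 FPKM untreated and at 2.32 and 2.78 FPKM with Dox (-0.28, adjusted p = 0.337), so its direction was opposite to that of Ndrg1. Ankrd37, an ankyrin repeat gene, was at 20.1 and 15.5 FPKM against 19.9 and 18.1 FPKM (0.10, adjusted p = 0.718). Mxi1, a MYC antagonist, was at 18.7 and 15.2 FPKM against 15.9 and 16.3 FPKM (-0.06, adjusted p = 0.787). Exons of Ankrd37, Bnip3 and Higd1a overlap other genes on the opposite strand over 26.4%, 22.3% and 22.5% of their length, and the sources do not say whether counting used strand. None of the 6 genes past the threshold has an exon that overlaps another gene.

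Replicates of the untreated group differed in a shared direction over these genes. Of the 38 rows, 30 (78.9%) were higher in untreated replicate 1 than in replicate 2, against 51.6% of all tested genes. The median difference was 0.079 on the log2 scale for these rows and 0.006 for all tested genes. It was largest among the hypoxia targets, with a median of 0.265 over the 11 genes, and in single values for Ndrg1 (0.58), Hk2 (0.37), Ankrd37 (0.35) and Slc16a3 (0.33). In the Dox group 18 of the 38 rows were higher in replicate 2 than in replicate 1 (47.4%, against 55.5% of all tested genes), among them Hk2 (0.40), Eno2 (0.32), Egln1 (0.30) and Pfkfb3 (0.28). Hk1, Hk2, Egln1, Pfkfb3 and Adm thus differed by at least 0.19 in these directions in both groups. Ndrg1 also differed in both, but was lower in Dox replicate 2 (-0.25). The differences of the 2 groups had a Spearman correlation of 0.25 over the 38 rows and of 0.28 over all tested genes. The Pearson correlations were 0.14 and 0.04, so the comparison with all genes depends on the measure. By role, the Spearman correlation was 0.45 over the 19 rows of glycolytic enzymes and -0.30 over the 11 hypoxia targets. Without untreated replicate 1 the median log2 fold change of the 38 rows was 0.136, and without untreated replicate 2 it was 0.010.

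**Figure D4:**
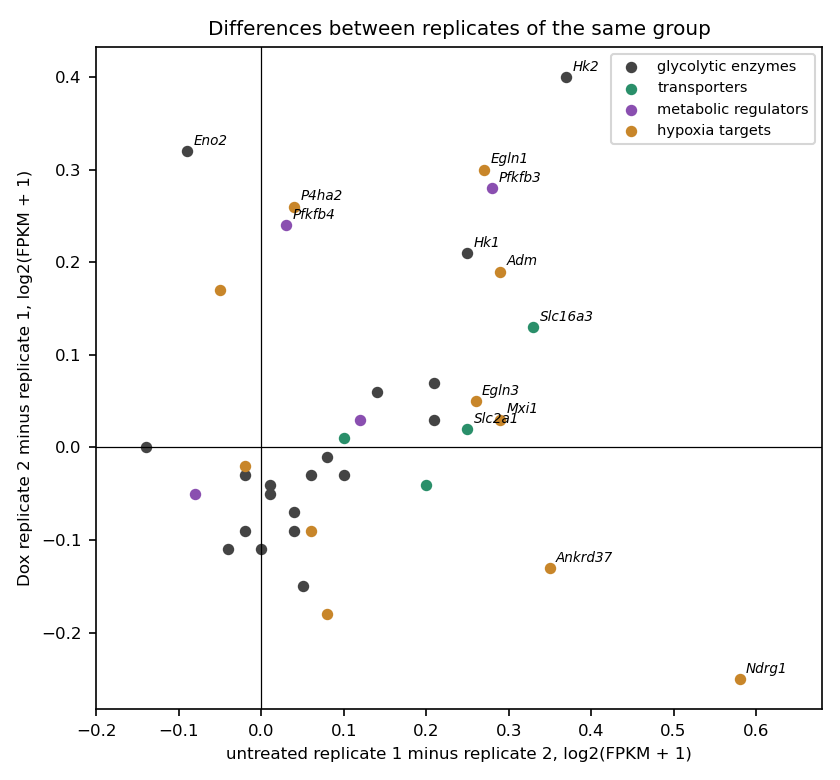
Difference between the 2 untreated libraries (x axis, replicate 1 minus 2) and between the 2 Dox libraries (y axis, replicate 2 minus 1) on the log2(FPKM + 1) scale, 1 point per row, coloured by role. Hk2, Egln1, Pfkfb3, Hk1 and Adm lie to the upper right, and 30 of the 38 points lie to the right of 0, Aldoc only marginally.

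Other genes of the pathway gave few calls. Of the 12 genes of the HIF machinery 11 were tested and 0 passed the threshold in limma in either direction, against 9.31% of all tested genes. With an unadjusted p below 0.05 there were 2 (18.2%, Arnt and Arnt2), against 23.9% of all tested genes. The median was -0.027, which turned positive without untreated replicate 1 (0.019), Dox replicate 1 (0.032) or Dox replicate 2 (0.003). Hif1a, the oxygen-regulated subunit, was at 23.9 and 22.9 FPKM untreated and at 25.4 and 29.1 FPKM with Dox (log2 fold change 0.21, adjusted p = 0.233). Its partner Arnt was at 15.2 and 14.4 FPKM against 17.3 and 19.7 FPKM (0.30, adjusted p = 0.121). Vhl, which encodes the ubiquitin ligase subunit that recognises HIF, was at 20.1 FPKM in both untreated and at 19.6 FPKM in both Dox libraries. Epas1, the HIF2A gene, was at 0.24 to 0.49 FPKM and was not tested.

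A further list of hypoxia targets had 25 genes in the table, 22 of them tested. Of these, 1 rose and 0 fell (4.55% called, against 9.31% of all tested genes). At an unadjusted p below 0.05 there were 10 (45.5%), where all tested genes had 23.9%. Among the 10, Bhlhe40, Gbe1 and Tfrc were lower with Dox and the others higher. The median log2 fold change of the list was 0.121. That median was 0.043 without Dox replicate 2 and 0.191 without Dox replicate 1. The gene that rose was Cited2, whose protein competes with HIF for its coactivators, from 85.7 and 86.7 FPKM to 116 and 132 FPKM (log2 fold change 0.52, adjusted p = 0.0182 in limma). Bhlhe40, a transcriptional repressor, did not pass the threshold and was at 13.6 and 9.81 FPKM untreated and at 7.07 and 8.11 FPKM with Dox (-0.55, adjusted p = 0.113). Car9, often used as a marker of low oxygen, was at 0.89 and 0.88 FPKM untreated and at 1.18 and 0.91 FPKM with Dox and was not tested.

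Of 23 other isozymes and branch enzymes 11 were tested, 3 rose and 0 fell. That is 27.3% of the 11, against 9.31% of all tested genes called and 4.44% that rose. Slc2a4, the insulin-regulated glucose transporter, rose from 3.66 and 4.30 FPKM to 6.92 and 7.46 FPKM (log2 fold change 0.72, adjusted p = 0.0176 in limma). Pck2, the mitochondrial enzyme that makes phosphoenolpyruvate from oxaloacetate, rose from 17.3 and 16.1 FPKM to 24.2 and 22.5 FPKM (0.46, adjusted p = 0.0254). Pdk2, a further pyruvate dehydrogenase kinase, rose from 2.87 and 2.35 FPKM to 4.25 and 4.56 FPKM (0.59, adjusted p = 0.0473). None of these 3 calls, nor that of Cited2, held in all fits. The calls for the 3 isozyme genes were each lost whenever a library was left out.

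Of the 7 pentose phosphate genes 0 passed the threshold in limma, against 9.31% of all tested genes. With an unadjusted p below 0.05 there was 1 (14.3%), Pgd (log2 fold change -0.18). Of the 24 genes of pyruvate entry and the TCA cycle 0 passed, with 0 at an unadjusted p below 0.05, where 23.9% of all tested genes lay. Their medians were -0.105 and -0.081. A negative log2 fold change was found in 19 of the 24 TCA cycle and pyruvate entry genes and in 7083 of the 13931 tested genes. The values of the 24 lay between -0.17 and 0.17. Leaving out Dox replicate 2 took the median of these 24 genes to -0.024, and leaving out untreated replicate 2 took it to -0.043. Without untreated replicate 1 or without Dox replicate 1 it was -0.097.

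**Figure D5:**
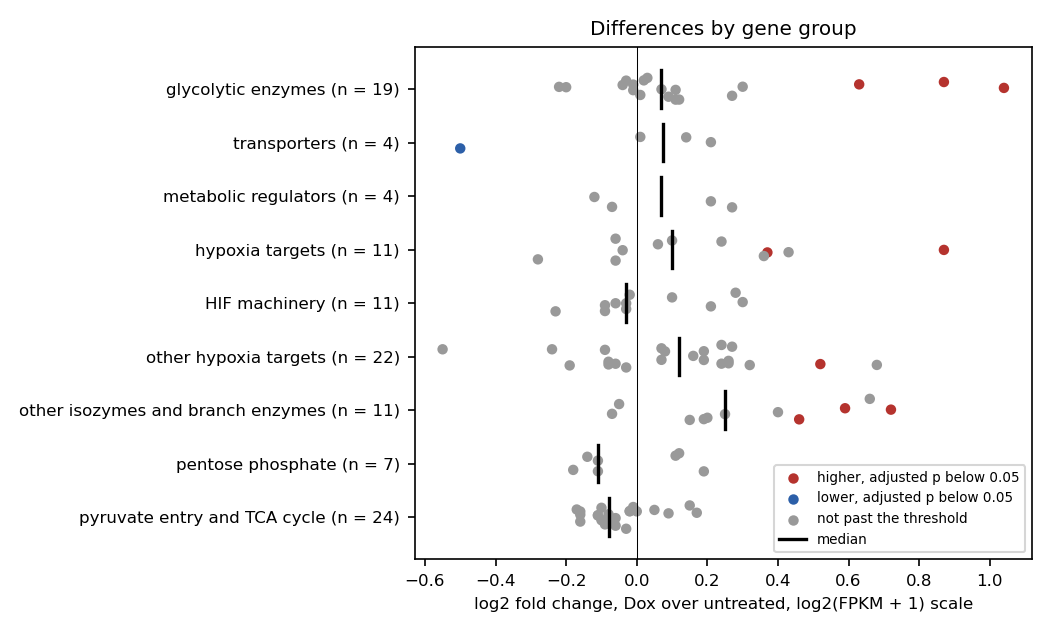
Log2 fold change with Dox of each tested gene, by group, with the median as a black bar (red higher and blue lower at an adjusted p below 0.05, grey not past the threshold). The red points are 3 glycolytic enzymes, 2 hypoxia targets, 1 further hypoxia target and 3 other isozymes, and the blue point is Slc2a3.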

How the data were processed

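Poly(A) RNA of 4 libraries of day 6 retinal organoids was sequenced. The authors deposited FPKM values, 1 column per library, rounded to 2 decimals. STAR, Cuffdiff and the mm10 build are named, without role, in the submitters' processing notes; annotation release, strand use and filters are not given in the sources used here. Gene coordinates and overlapping exons were read from GENCODE M21 (GRCm38), which matched all 38 rows by identifier.

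FPKM is not a count, so log2(FPKM + 1) was tested, for the 13931 genes averaging 1 FPKM or more across all 4 libraries, with limma 3.58.1 in R 4.3.3 (eBayes with an intensity trend, no covariate). P-values are two-sided, Benjamini-Hochberg adjusted over every tested gene, and called below 0.05. All log2 fold changes are of FPKM + 1, so changes of low genes come out too small. SDs of 2 libraries are rough, and gene-wise tests borrow variance across genes. The named genes are all 37 members, with every library's value for those past or near the threshold, and up to 4 called genes from each of 5 other pathway lists. Arnt, Arnt2, Hif1a, Vhl, Epas1, Bhlhe40, Gbe1, Tfrc, Car9 and Pgd, and the copies of glycolytic genes, fall outside that rule and were chosen after their values were seen. The members and lists were chosen with earlier results of these data known.

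Depth was estimated from low values (under 0.5 FPKM) of genes with 1 transcript of 450 to 1200 nt, of which 89.4% to 90.6% came out within 0.2 of a whole fragment (Python 3.11.15). In simulated data for the Dox comparison (13931 genes, 200 changed), limma recovered 67% of changes of 1 and 87% of changes of 2 on the log2 scale, with 0 in the wrong direction. Far more genes (1297) were called in the real data, and no change below 1 was simulated, the size of every called member except Eno3. The rates therefore do not give the sensitivity for such changes. Same-numbered libraries did not deviate together (Pearson correlation over genes -0.04), so the numbers are not taken to pair them. By rank, untreated replicate 1 minus 2 and Dox replicate 2 minus 1 had a correlation of 0.28 over all tested genes (Spearman). The Pearson correlation of these differences was 0.04, the same quantity as the -0.04 above with its sign turned. Libraries of unlike number thus deviated together by rank only, and no fit models this. The alternatives were other pseudocounts, filters and scalings, eBayes without trend or robust, the replicate block, and each library left out in turn.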

Additional observations from a re-analysis of the deposited data

How the results depend on the processing

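None of the 6 called members changed sign in any of the 14 alternatives, and Eno3 and Ldhb kept their calls in all of them. Over all tested genes 1297 were called. That number was 745 without a filter, 821 when only genes of mean 5 FPKM or more were tested, and 593 to 697 when a library was left out. These last fits leave 1 library in a group, which is then assumed to vary like the other group. Of the 38 rows, 5 were called higher in the main comparison, 3 without the eBayes trend, 2 without a filter and 2 to 3 with a library left out. The 1 called lower (Slc2a3) became 0 without a filter, with the replicate block and with any library left out (0 to 0). The cause was not tested.

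With the replicate block, 4 rows were called higher and 0 lower, the calls of P4ha1 and Slc2a3 being lost. It changed no other call among the 38 rows. The libraries share only a number.

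Rescaling to TPM called Eno1 (adjusted p = 0.0329 in limma) and Ldha (0.0378) higher and lost Eno2 (0.0508) and P4ha1 (0.0675). Quantile normalization also called Eno1 (0.0419). Without the trend Eno2 (0.0549) and P4ha1 (0.0516) were lost, and without a filter these (0.149, 0.0510), Egln3 (0.0764) and Slc2a3 (0.113).

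The median of the 38 rows ranged from 0.010 to 0.136 with a library left out, against 0.082. Leaving out untreated replicate 1 (0.136) or 2 (0.010) moved it by more than 0.0413. That yardstick is the pooled SD between replicates of each library's median log2(FPKM + 1) over these rows, a level and not a fold change. Members that had not passed changed sign near 0: with TPM, Aldoc (0.0081) and Pfkm (0.0098), and with quantile normalization, Pgam1 (0.0078). With a library left out the log2 fold change ranged from -0.0648 to 0.0420 for Aldoc, -0.0786 to 0.2719 for Ankrd37, -0.2041 to 0.0918 for Egln1, -0.0478 to 0.0581 for Gapdh and -0.1295 to 0.0523 for Higd1a. It ranged from -0.0562 to 0.1969 for Hk1, -0.0936 to 0.3101 for Hk2, -0.2058 to 0.0794 for Mxi1, -0.0623 to 0.0379 for Pfkm, -0.1118 to 0.0254 for Pgam1, -0.0236 to 0.0540 for Pkm, -0.1094 to 0.1388 for Slc2a1 and -0.0204 to 0.0714 for Tpi1.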

Other observations

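Rows that the table names as copies of a glycolytic gene were listed at sizeable levels, and they are given as values only. Tpi-rs11, a related sequence of Tpi1, was at 97.7 and 112 FPKM untreated and at 117 and 108 FPKM with Dox. Pgam1-ps2, a pseudogene of Pgam1, was at 97.7 and 87.1 FPKM untreated and at 93.1 and 89.2 FPKM with Dox. Ldha-ps2 was at 23.0 and 23.3 FPKM untreated and at 27.7 and 25.3 FPKM with Dox. Pgk1-rs7 was listed at 0 in replicate 1 of both groups and at 9.72 FPKM in untreated replicate 2 and 10.3 FPKM in Dox replicate 2. None of these 4 rows passed the threshold (adjusted p = 0.225 to 0.990 in limma).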
